A study of Mus musculus with 8 samples.

Results

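Cultured mouse embryonic fibroblasts, cells of connective tissue, with a human TAF4 transgene that lacks the TAFH domain were compared with control fibroblasts. The comparison uses 4 of the 8 RNA sequencing libraries of the series, chosen by their labels: control libraries 1 and 2, and TAFH-deleted clones 1 and 2, all of strain C57BL/6. Control cells carry 1 floxed and 1 null allele of Taf4, while elsewhere the labels describe them as wild type. The TAFH-deleted cells are Taf4 -/- and stably express the shortened human protein. They differ from control in the lost mouse gene, in the transgene and in their origin as clones, and these cannot be told apart. What drives the transgene, and whether the clones arose independently, is not given in the sources used here. The labels name no separate cultures behind these libraries. The other libraries, 2 of Taf4 -/- cells without a transgene (knockout) and 2 from clones of such cells with full-length human TAF4 (full-length rescue), are given beside the results. Each p-value here reflects the spread between clones 1 and 2 of the TAFH-deleted rescue and of the full-length rescue, with 1 library for each clone. How much of that spread is technical is not known.

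TAF4 is a subunit of TFIID, the general transcription factor that binds core promoters and helps to place RNA polymerase II at the start of genes. Its TAFH domain is also found in corepressors of the ETO family, and it offers a docking surface to activators. By its title, the series concerns TAF4 as a coactivator for E proteins. These factors with a basic helix-loop-helix fold, encoded by Tcf3, Tcf4 and Tcf12, bind E-box letters in DNA, and Id proteins keep them from doing so. Fibroblasts build collagens, proteoglycans and glycoproteins of the extracellular matrix, and they send and receive growth factor, BMP and Wnt signals.

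Levels are the FPKM values that the authors deposited, which count fragments relative to transcript length and library size. The steps between low values imply that each control library held 17.3 times 1e6 fragments, TAFH-deleted clone 1 held 14.3 times and clone 2 held 16.2 times that number. Differences within the control pair were below sampling noise, with a chi-square per gene of 0.776 ± 0.0347 (SE) where independent reads give 1, and they were averaged and counted as 1 sample. The same measure was 2.39 ± 0.0951 (SE) between the TAFH-deleted clones. Of 14 fibroblast markers, 12 passed the filter on low values, and Vim, an intermediate filament protein, stood at 120 and 121 FPKM in control and at 146 and 130 in clones 1 and 2. Of the 12, 9 were below control in both clones and 3 above it in both. Below control were thus 75% in each clone, against 52.3% of all genes in clone 1 and 48.4% in clone 2. One of the 12, Pdgfra, was called lower by limma, as were 0.557% of all genes. The summed level of the 14 was 989 and 987 FPKM in control and 921 and 824 in clones 1 and 2. Of 9 endothelial markers 0 passed the filter, of 12 epithelial ones 1, of 11 blood cell ones 3 and of 10 skeletal muscle ones 1, with sums in the clones of 0.263 and 0.630, 1.24 and 4.87, 7.71 and 8.74, and 2.43 and 0.654 FPKM. Epcam and Ptprc, defining markers of epithelium and blood cells, were listed at 0 in both clones, and endothelial Pecam1 at 0.0461 and 0.0809 FPKM. Highly expressed genes neared saturation, with values that level off near 1 fragment for each start position. For 2 kilobases that level lies at 129 FPKM in the control libraries, 156 in clone 1 and 137 in clone 2. Vim had 92.4% of its possible read starts in use, so its listed levels do not show a rise. A low listed value is no proof of a low transcript level, since the cytoplasmic actin gene Actg1 was listed between 1.35 and 1.68 FPKM in all 8 libraries.

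Among genes at least 2-fold from control, both TAFH-deleted clones had many more below it than above it. Over all tested genes the directions were nearly even, with 52.3% below control in clone 1 and 48.4% in clone 2. The largest losses included matrix, adhesion and secreted signalling genes such as Dcn, Cdh11 and Gas6. Of 12025 genes tested, clone 1 had 947 (7.88%) at least 2-fold lower than control and 86 (0.715%) at least 2-fold higher. Clone 2 had 942 (7.83%) lower and 99 (0.823%) higher. Both clones were at least 2-fold lower in 547 genes (4.55%) and at least 2-fold higher in 9 (0.0748%). A 2-fold difference here is a difference of 1 in log2(FPKM + 1), a scale that understates changes of low genes. The median over all genes was -0.02 in clone 1 and 0.01 in clone 2. The split of directions depended on scaling: of the genes at least 2-fold from control, 8.33% were higher in clone 1 and 9.51% in clone 2 as deposited, against 34.2% and 30.4% after quantile normalization. Since the clones share the control sample, the counts that both pass are given as counts only.

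Many genes expressed in control were close to 0 in the clones. Among the tested genes, 186 were under 0.1 FPKM in clone 1 and 219 in clone 2, against 8 and 7 in the control libraries. Such genes numbered 95 in each knockout library, and 71 and 101 in the full-length rescue clones. Genes of 1 to 5 FPKM in control were at least 2-fold lower in both clones in 13.2% of cases, genes of 5 to 20 FPKM in 5.82%, and genes of 20 FPKM or more in 1.44%. The filter needs 1 FPKM in 2 libraries, which the near-identical control pair meets by itself, so genes present only in control pass and could only be lower elsewhere. With a filter of 1 FPKM in 1 of the 6 samples, chosen after seeing the data, clone 1 had 92 genes higher and 950 lower, and clone 2 had 117 and 944.

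**Figure D1:**
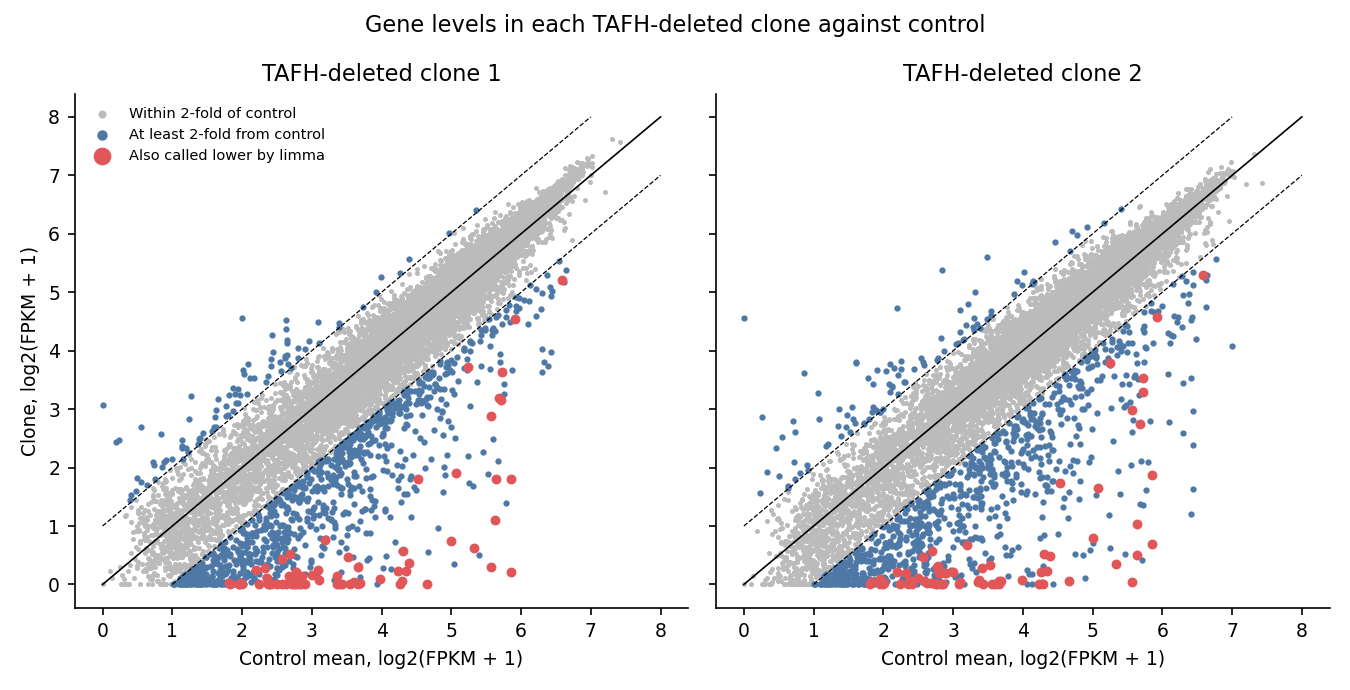
Each point is a gene, with the mean of the control libraries on the x axis and 1 TAFH-deleted clone on the y axis, both as log2(FPKM + 1). The solid line marks equal levels and the dashed lines a 2-fold difference. Points below the lower dashed line (947 genes in clone 1 and 942 in clone 2) outnumber those above the upper one (86 and 99), and the 67 genes called lower (large points) lie mostly along the bottom.

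Testing both clones together, limma on log2(FPKM + 1) called 67 genes lower (0.557%) and 0 higher (0%) at a Benjamini-Hochberg adjusted p of 0.05, while 1045 were lower and 452 higher at an unadjusted p under 0.05. This unadjusted split turned under quantile normalization, to 754 lower and 846 higher, and was 926 and 638 under median centring. The called genes had a median of 9.23 FPKM in control, 0.0962 in clone 1 and 0.0616 in clone 2. Their medians were 0.642 FPKM in knockout, and 2.44 and 1.71 in the full-length rescue clones. In 51 of the 67 genes both TAFH-deleted clones were under 0.5 FPKM, and in 11 both were at 1 FPKM or more. In bulk RNA, fewer cells that express a gene and less RNA in each cell cannot be told apart. The fit takes its spread from the full-length rescue clones as well as from the TAFH-deleted ones. Over all tested genes, log2 differences had an SD of 0.203 between the full-length clones and 0.575 between the TAFH-deleted ones. Dropping a full-length clone, or fitting only control and TAFH-deleted samples, also leaves 1 residual degree of freedom for the spread in place of 2. The part of each in the counts that follow was not tested. Without full-length clone 1, or without full-length clone 2, 0 genes were called, and the same held when only control and TAFH-deleted samples were fitted. Leaving out TAFH-deleted clone 1 gave 1892 genes lower and 1193 higher, and leaving out clone 2 gave 2098 and 1511.

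Leaving out predicted genes, the 12 genes furthest below control in both clones were all among the 67 called, with adjusted p between 0.0370 and 0.0406 (limma, Benjamini-Hochberg). All 12 lost the call without either full-length clone, and 5 of them under quantile normalization. Gas6, which encodes a secreted ligand of the TAM receptor tyrosine kinases (chromosome 8, 13465374 to 13494535, mm9), stood at 47.2 and 45.8 FPKM in control and at 0.235 and 0.0258 in clones 1 and 2. Its log2 difference was -5.40 ± 0.24 (SE). It was also low in knockout, at 3.0 and 3.59 FPKM, and in full-length rescue, at 0.760 and 0.545. Both control libraries therefore lay above every other library, and both TAFH-deleted clones below every other one. Stmn2, a microtubule regulator known from neurons (chromosome 3, 8509527 to 8561604), was likewise near zero in all but the control libraries: 57.1 and 56.6 FPKM in control, 0.165 and 0.616 in the TAFH-deleted clones, and 0.138 and 0.0348 in the full-length clones. Its log2 difference was -5.40 ± 0.28 (SE).

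Vsig1, an immunoglobulin-family surface protein (chromosome X, 137442147 to 137474011, mm9), showed another order of the groups. It stood at 14.9 and 14.7 FPKM in control and at 0.0615 and 0.0492 in TAFH-deleted clones 1 and 2, a log2 difference of -3.90 ± 0.20 (SE). Knockout was as low, at 0.0540 and 0.0593 FPKM, whereas the full-length clones, at 28.5 and 28.8, lay above control. Lama4, a laminin chain of vessel and muscle basement membranes (chromosome 10, 38685321 to 38829994), stood at 19.4 and 19.3 FPKM in control and at 0.180 and 0.179 in TAFH-deleted clones 1 and 2. Full-length rescue held it at 24.5 and 27.1 FPKM, also above control. The TAFH-deleted clones agreed closely in both genes, and their log2 difference from control in Lama4 was -4.11 in each.

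Promoters of 4 of these 12 genes could be read from a RefSeq table (GRCm38.p6), and those of Gas6 and Vsig1 are shown because both genes fell to under 0.3 FPKM in both clones while full-length rescue left them far apart. Each run holds the 250 bases before the start of the gene on its own strand, chr8:13494536-13494785 (minus strand) for Gas6 and chrX:140907358-140907607 (plus strand) for Vsig1, with letters of the E-box pattern CANNTG in capitals.
Gas6: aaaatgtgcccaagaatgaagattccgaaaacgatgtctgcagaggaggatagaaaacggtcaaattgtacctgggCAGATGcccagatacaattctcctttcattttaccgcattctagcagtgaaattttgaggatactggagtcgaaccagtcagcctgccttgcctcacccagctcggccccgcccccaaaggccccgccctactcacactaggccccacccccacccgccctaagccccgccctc
Vsig1: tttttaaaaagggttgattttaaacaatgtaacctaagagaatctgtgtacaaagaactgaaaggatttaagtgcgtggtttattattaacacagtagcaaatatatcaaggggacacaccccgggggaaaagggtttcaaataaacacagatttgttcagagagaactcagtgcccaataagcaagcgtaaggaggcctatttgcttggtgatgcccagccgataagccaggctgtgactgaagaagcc
The Gas6 window holds 1 such match, CAGATG, which begins 174 bases before the start, and the Vsig1 window holds 0. CANNTG reads the same on both strands, and it was found in 22 of the 44 called genes with a promoter in the table (50%), in 61.0% of those at least 2-fold lower in both clones and in 55.4% of all tested genes. A narrower form that the wide pattern includes, CAGCTG, was in 9.09% of the called genes' windows, in 14.5% of those at least 2-fold lower in both clones and in 11.2% of all. A match is a description of letters, not a bound site.

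Matrix and adhesion genes made up 4 more of the 12. Dcn, which encodes the collagen-binding proteoglycan decorin, was at 24.0 and 24.4 FPKM in control and was listed at 0 and 0.0387 in clones 1 and 2. Vit, a matrix protein named vitrin, stood at 38.9 and 39.6 FPKM in control and at 0.544 and 0.277 in the clones. Col2a1, the chain of cartilage collagen, was at 48.2 and 48.9 FPKM in control and at 1.14 and 0.417. In each of these genes both clones lay below both knockout libraries, and full-length rescue held Vit at 28.9 and 25.8 FPKM. Cdh11, a cadherin of mesenchymal cells, was at 30.6 and 31.3 FPKM in control and at 0.681 and 0.737 in the clones.

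The remaining named falls encode surface and membrane proteins and an enzyme. Scara5, a scavenger receptor that takes up ferritin, was at 18.9 and 18.4 FPKM in control and at 0.0390 and 0 in clones 1 and 2. Cd34, a surface sialomucin of progenitor cells and some fibroblasts, was at 17.9 and 18.5 FPKM in control and at 0 and 0.163. Dio3, which encodes a deiodinase that inactivates thyroid hormone, was at 16.9 and 18.6 FPKM in control and at 0.169 and 0. Its neighbour on the other strand, Dio3os, was also called, from 10.2 and 9.35 FPKM to 0 in both clones. No source says that counting used strand, but the listed spans do not overlap. On chromosome 12 (mm9) Dio3os lies at 111513595 to 111516339 and Dio3 at 111517440 to 111519307. Tmem159, a protein of lipid droplets, was at 19.2 and 20.8 FPKM in control and at 0.290 and 0.408. Full-length rescue kept Tmem159 near control, at 16.9 and 15.9 FPKM, and Scara5 well below it, at 1.90 and 0.910.

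**Figure D2:**
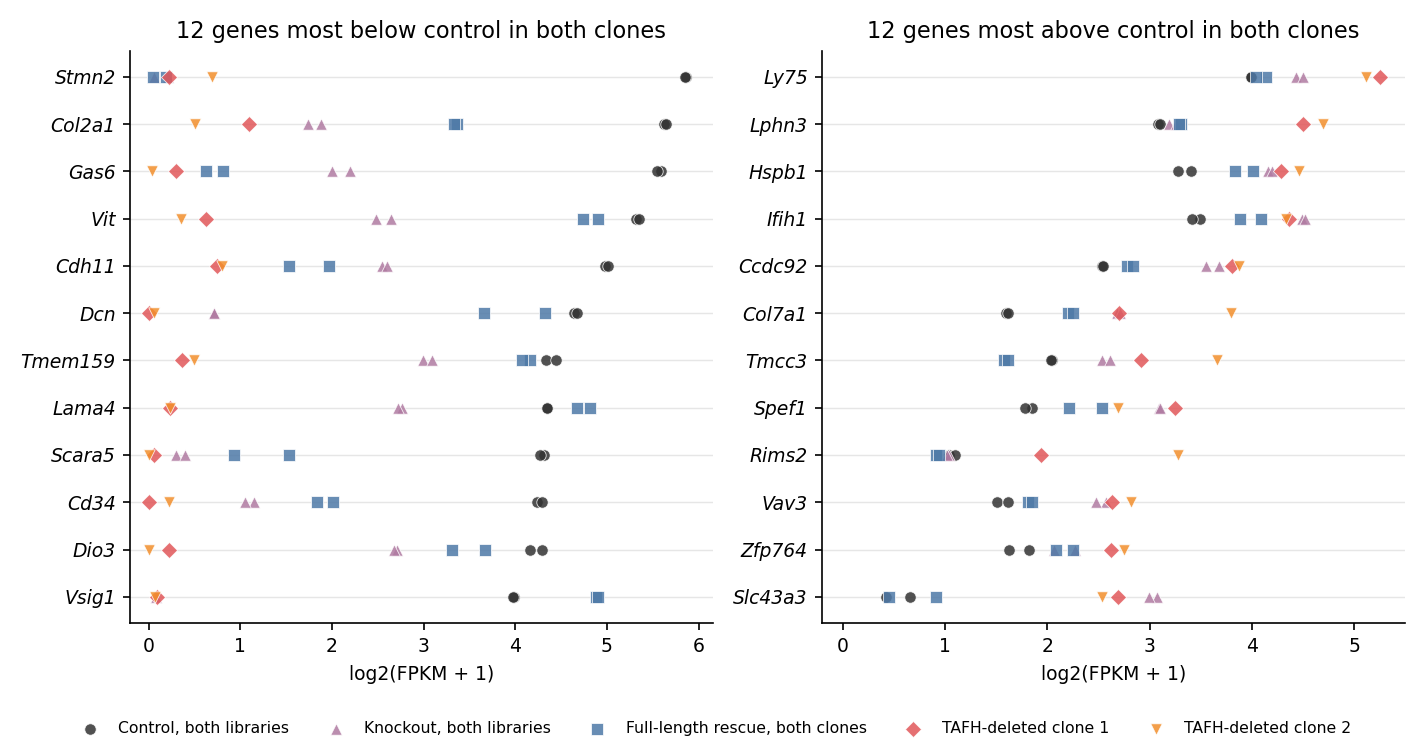
Levels of named genes in all 8 libraries as log2(FPKM + 1), with the 12 genes most below control in both clones, predicted genes left out, on the left and the 12 most above it on the right. On the left the control libraries (circles) are far from the TAFH-deleted clones (diamonds and inverted triangles), and the full-length clones (squares) range from near zero in Stmn2 to above control in Vsig1 and Lama4. On the right the gaps are smaller and no gene was called.

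Other called genes fell by less, or from lower levels. Mmp2, the gelatinase that cuts basement membrane collagen, was at 46.4 and 46.6 FPKM in control and at 6.35 and 6.95 in TAFH-deleted clones 1 and 2, a log2 difference of -2.64 ± 0.12 (SE, adjusted p = 0.0370 by limma). It stood apart from Gas6 in knockout, which held 49.3 and 48.4 FPKM, and in full-length rescue, at 69.9 and 71.0. Among the called genes were Gata6 and Tbx20, which encode transcription factors. Gata6 was at 11.5 and 11.8 FPKM in control, at 0.234 and 0.0412 in the TAFH-deleted clones and at 9.95 and 9.83 in the full-length clones. Tbx20 was at 9.27 and 9.34 FPKM in control, 0 and 0.0503 in the TAFH-deleted clones, and 0.0188 and 0.0190 in the full-length clones.

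Further called genes, chosen here after their values were seen, encode secreted proteins. Slit3, an axon guidance ligand, went from 12 and 11.8 FPKM in control to 0.0146 and 0.0386, and the BMP antagonist Nbl1 from 59.4 and 59.5 to 22.3 and 22.8. Sod3, the extracellular superoxide dismutase, went from 48.0 and 49.3 FPKM to 2.47 and 1.04. Il1rn, the antagonist of the interleukin-1 receptor, went from 33.0 and 32.3 FPKM to 2.76 and 2.15. The smallest called difference was that of Igfbp4, an IGF-binding protein: 95.2 and 94.9 FPKM in control and 36.0 and 38.3 in the clones, a log2 difference of -1.33 ± 0.09 (SE, adjusted p = 0.0372 by limma).

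The gene lists are read against all 12025 genes, of which 0.557% were called lower. Below control stood 52.3% of all genes in clone 1 and 48.4% in clone 2. At an unadjusted p under 0.05 (limma), 1045 were lower and 452 higher. The lists and members were chosen with earlier results of these data known, so their shares and medians describe the lists and test nothing. Proteoglycans and glycoproteins of the matrix had 2 of 32 tested members called lower (Dcn and Vit). In clone 1, 12 (37.5%) were at least 2-fold lower, against 7.88% of all genes, and the median was -0.47 against -0.02. In clone 2, 19 (59.4%) were, against 7.83%, and the median was -1.47 against 0.01. The small leucine-rich proteoglycan Fmod, fibromodulin, was at 50.4 and 49.8 FPKM in control and at 3.33 and 1.60 in the clones (adjusted p = 0.0525 by limma). Npnt, a ligand of integrins, was at 41.2 FPKM in both control libraries and at 0.425 and 1.92 in the clones (adjusted p = 0.0678 by limma). Prelp, of the same family as Fmod, was at 16.4 and 16.5 FPKM against 1.24 and 0.127. Other members were low in clone 2 alone: Vcan, the large proteoglycan versican, was at 29.4 and 29.2 FPKM in control, 24.5 in clone 1 and 8.82 in clone 2, and Ogn at 98.0 and 99.1, 90.8 and 38.1. In 11 of the 32 the clones lay at least 2-fold apart.

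Collagen chains moved less as a group, with medians of -0.36 and -0.52, and 1 of 21 called. That gene was Col8a2, a short-chain collagen of the cornea and vessels, at 10.2 and 10.7 FPKM in control and 0.391 and 0.254 in the clones. Col18a1, the source of endostatin, was at 10.6 and 10.3 FPKM in control and at 2.29 and 1.21, and Col4a6, a basement membrane chain, at 2.64 and 2.95 against 0.0761 and 0.0573, neither of which passed the test. The main fibrillar chain Col1a1 was at 113 FPKM in both control libraries and 128 and 116 in the clones. It used 92.6% of its read starts, near a ceiling that lies higher in the clones than in control, so these values do not show a rise. Col7a1, which forms the anchoring fibrils of skin, lay above control, at 2.02 and 2.06 FPKM in control and 5.50 and 12.9 in the clones (adjusted p = 0.328 by limma).

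Among laminin chains and integrins, 1 of 20 was called (Lama4), and the medians of clones 1 and 2 were -0.61 and -0.22. Itga1, the chain of a collagen-binding integrin, was at 9.88 and 10.0 FPKM in control and at 1.31 and 0.458 in the clones, and Itga11, of another collagen receptor, at 34.1 and 34.2 against 17.1 and 10.9. Neither passed the test. Integrin Itga6 parted the clones, with 7.49 and 7.67 FPKM in control, 4.70 in clone 1 and 18.9 in clone 2. Of 30 matrix proteases and inhibitors, 2 were called, Mmp2 and Ctsk. Ctsk, the collagen-cutting protease cathepsin K, was at 18.4 and 19.2 FPKM in control and at 0.494 and 0.434 in the clones, against 26.4 and 26.6 in the full-length clones. The protease list had medians of -0.03 and -0.15, against -0.02 and 0.01 for all genes. The first of these turned to 0.04 under median centring. In clone 1, 20% of the list was at least 2-fold lower, against 7.88% of all genes, and in clone 2, 26.7%, against 7.83%. Below control stood 56.7% of it in clone 1, against 52.3% of all genes, and 76.7% in clone 2, against 48.4%.

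Of 34 tested growth factors and receptors, 4 were called (Gas6, Fgf5, Pdgfra and Igfbp4), and the medians were -0.59 and -0.27. Below control stood 88.2% of the list in clone 1, against 52.3% of all genes, and 64.7% in clone 2, against 48.4%. Fgf5, a fibroblast growth factor, was at 4.14 and 4.50 FPKM in control, was listed at 0 in both clones, and stood at 8.06 and 7.83 in the full-length clones. Pdgfra, a receptor for platelet-derived growth factor and a fibroblast marker, was at 51.3 and 52.2 FPKM in control and at 11.5 and 8.81 in the clones (adjusted p = 0.0497 by limma). Full-length rescue had 52.9 and 56.7 FPKM of it. Hgf, hepatocyte growth factor, was at 4.45 and 5.12 FPKM in control and at 0.192 and 0.0724 in the clones, and missed the threshold (adjusted p = 0.0722 by limma).

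In the TGF-beta and BMP pathway, 1 of 29 tested genes was called: Gdf6, a BMP-family ligand, at 5.71 and 5.44 FPKM in control and 0 and 0.0185 in the clones. The medians were -0.21 and -0.38. Antagonists of the pathway were among the lowest members without passing the test. Grem1, gremlin, was at 82.1 and 82.7 FPKM in control and at 12.3 and 30.2 in the clones, Fst, follistatin, at 27.8 and 26.2 against 0.953 and 5.37, and Chrd, chordin, at 7.70 and 7.51 against 2.65 and 2.23. The ligand gene Bmp4 was at 61.3 and 61.9 FPKM in control and at 25.6 and 32.3. All 4 lay below both control libraries in both clones.

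Wnt response genes and modulators had medians of -0.73 in clone 1 and -0.90 in clone 2 over 26 tested genes, of which 1 was called. Both clones were at least 2-fold lower in 8 of the 26 (30.8%), against 4.55% of all genes. The called gene was Sfrp1, a secreted antagonist of Wnt ligands, at 50.4 and 50.2 FPKM in control and 8.11 and 5.73 in the clones (adjusted p = 0.0497 by limma). The secreted Wnt activators of the R-spondin family lay low together: Rspo3 was at 36.7 and 37.5 FPKM in control and at 2.33 and 0.534 in the clones, Rspo2 at 67.5 and 67.6 against 21.1 and 5.87, and Rspo1 at 4.80 and 4.50 against 0.473 and 0.529. Of the pathway's targets, Axin2 was at 3.12 and 2.85 FPKM against 0.571 and 0.365, and Tcf7 at 3.07 and 3.32 against 0.555 and 0.396. None of these 5 passed the test, with adjusted p between 0.0837 and 0.312 by limma, and 12 of the 26 list members were lower at an unadjusted p under 0.05, against 1045 of 12025 for all genes. Wisp1, a matricellular Wnt target, lay the other way, at 27.0 and 27.1 FPKM in control and 40.2 and 44.0 in the clones.

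**Figure D3:**
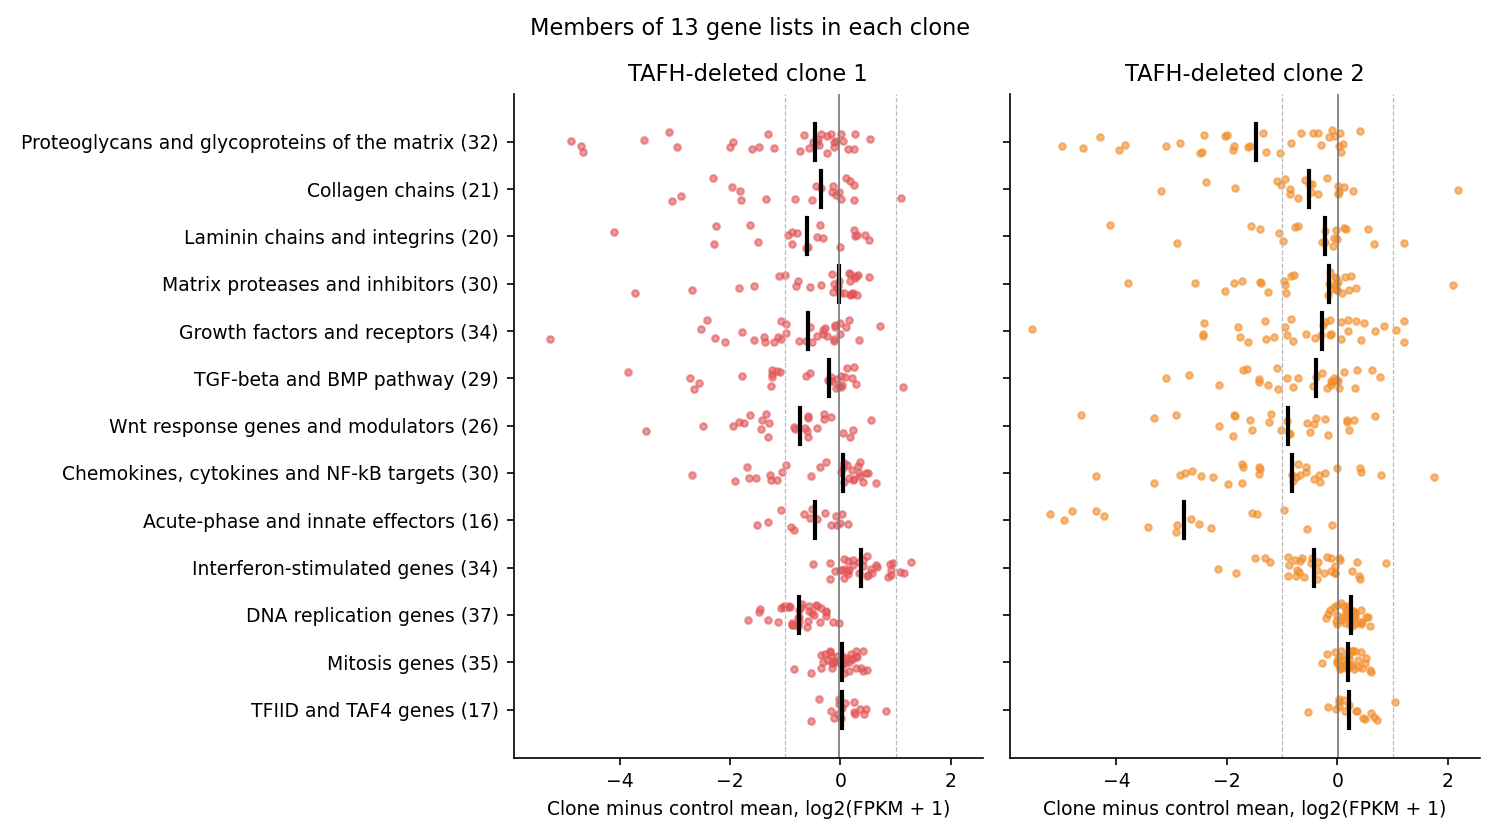
Each point is a tested member of 1 of 13 gene lists, placed by its log2(FPKM + 1) difference from the control mean in TAFH-deleted clone 1 (left) or clone 2 (right). Black bars are list medians, the grey line is the median of all genes, dashed lines mark 2-fold, and vertical scatter has no meaning. Matrix and Wnt lists reach far to the left in both panels, while acute-phase genes do so in clone 2 and DNA replication genes lie left of zero in clone 1 and mostly right of it in clone 2.

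Lineage lists of other tissues are small, and their calls are read against the 0.557% of all genes called lower. Of 12 cartilage and bone genes, 1 was called (Col2a1), and Alpl, tissue-nonspecific alkaline phosphatase, was at 13.7 and 11.9 FPKM in control and at 0.334 and 0.107 in the clones without passing the test. The list had medians of -0.37 in clone 1 and -0.48 in clone 2. In clone 1, 33.3% of it was at least 2-fold lower, against 7.88% of all genes, and in clone 2, 41.7%, against 7.83%. Of 11 neural and glial genes, 1 was called (Stmn2), and Tubb3, a neuronal tubulin, was at 14.5 and 13.4 FPKM in control and at 1.52 and 2.60. Medians of this list were -0.86 in clone 1 and -0.48 in clone 2, with 36.4% and 18.2% at least 2-fold lower. Of 14 imprinted growth genes, 2 were called, Dcn and Cdkn1c, and 35.7% were at least 2-fold lower in clone 1 and 28.6% in clone 2. Cdkn1c, an inhibitor of cyclin-dependent kinases, was at 5.33 and 4.59 FPKM in control and at 0 and 0.0362 in the clones. Igf2, the growth factor of the same chromosome region, was at 2.31 and 2.24 FPKM against 0.101 and 0.0706 (adjusted p = 0.0593 by limma), and the neighbouring H19 at 9.23 and 10.2 against 2.73 and 1.64. Of 7 adipocyte genes 0 were called, with 2 lower at an unadjusted p under 0.05, and of 11 Hox genes 0, with 1 higher and with 9 above control in clone 1 and 4 in clone 2. Smooth muscle contractile genes had 0 of 16 called and 5 lower at an unadjusted p under 0.05, against 1045 of 12025 for all genes. In clone 1, 8 of the 16 were below control and 8 above, and in clone 2, 15 and 1. Cnn1, calponin, was at 47.1 and 44.9 FPKM in control, 15.8 in clone 1 and 3.11 in clone 2.

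No gene was called higher in the test of both clones. Differences of at least 4-fold upward were found in 5 genes in clone 1 and 10 in clone 2, against 221 and 274 downward. Ly75, an endocytic receptor of the C-type lectin family, had the lowest adjusted p, at 14.9 FPKM in both control libraries and 37.1 and 33.8 in the clones, a log2 difference of 1.19 ± 0.14 (SE, adjusted p = 0.0722 by limma). Lphn3, an adhesion receptor of the latrophilin family, was at 7.49 and 7.56 FPKM in control and at 21.6 and 24.9 in the clones. In these genes the knockout and full-length libraries lay between 15.5 and 21.6 FPKM for Ly75 and between 8.15 and 8.93 for Lphn3, all below both TAFH-deleted clones. Slc43a3, a nucleobase transporter, was at 0.580 and 0.338 FPKM in control and at 5.47 and 4.78 in the clones. It was at 7.41 and 6.99 FPKM in knockout and at 0.880 and 0.370 in full-length rescue.

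Further genes above control in both clones were the GTPase activator Vav3, at 1.85 and 2.07 FPKM in control and 5.19 and 6.07 in the clones, and the small heat shock protein gene Hspb1, at 8.71 and 9.59 against 18.6 and 21.0. The RNA sensor Ifih1 was at 10.3 and 9.63 FPKM against 19.6 and 19.2, which is below its 21.5 and 21.9 in knockout. Rims2, a scaffold of the presynaptic active zone, was at 1.05 and 1.14 FPKM in control, 2.84 in clone 1 and 8.72 in clone 2. Adjusted p for the 12 genes furthest above control by the same rule lay between 0.0722 and 0.427 (limma).

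The TAFH-deleted clones differed from each other at least 2-fold in 923 genes (7.68%), of which 491 were higher and 432 lower in clone 2. The control libraries were that far apart in 6 genes and the full-length clones in 39. With 1 library for each clone, differences between the clones have no replicate check. Clone 2 was low in most acute-phase and innate effector genes. In 13 of 16 tested members (81.2%, against 7.83% of all genes) it was at least 2-fold below control, with a median of -2.78. Clone 1 was that low in 3 members (18.8%, against 7.88%), with a median of -0.47. Of the list 0 were called, and 3 of 16 were lower at an unadjusted p under 0.05, against 1045 of 12025. At a pseudocount of 5 the medians were -0.34 in clone 1 and -1.60 in clone 2. Hp, haptoglobin, was at 43.3 and 43.0 FPKM in control, 38.2 in clone 1 and 0.432 in clone 2. C3, the central complement protein, was at 85.7 and 85.3, 82.3 and 2.09 FPKM, and Lcn2, an iron-scavenging lipocalin, at 128 and 127, 127 and 15.9. Clone 1 stood beside control in these genes, while knockout lay above it, for example at 79.6 and 79.4 FPKM of Hp. Saa3, an acute-phase apolipoprotein, was lower in both clones, at 84.9 and 83.1 FPKM in control, 33.0 in clone 1 and 1.32 in clone 2.

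Chemokines, cytokines and NF-kB targets divided the clones in the same sense, with medians of 0.05 and -0.81 in clones 1 and 2 over 30 genes and 14 (46.7%, against 7.83% of all genes) at least 2-fold lower in clone 2. Vcam1, an adhesion molecule, was at 38.0 and 38.5 FPKM in control, 44.2 in clone 1 and 4.45 in clone 2. Some members were low in both clones: the cytokine gene Il6 was at 28.2 and 28.1 FPKM in control and at 6.75 and 0.419 in the clones, and Ptges, a prostaglandin synthase, at 6.82 and 6.95 against 0.224 and 0.161 (adjusted p = 0.0646 by limma). In this list 0 genes were called, with 7 lower and 1 higher at an unadjusted p under 0.05. Interferon-stimulated genes stood above control in 29 of 34 members in clone 1 (median 0.37) and below it in 27 of 34 in clone 2 (median -0.42). Below control were thus 14.7% of the list in clone 1, against 52.3% of all genes, and 79.4% in clone 2, against 48.4%. Quantile normalization moved the medians to 0.64 and -0.12. Ifit1, an RNA-binding antiviral protein, was at 14 and 14.3 FPKM in control, 31.0 in clone 1 and 7.16 in clone 2. The interferon-induced membrane protein gene Ifitm1 was at 4.05 and 4.75, 18.3 and 0.261 FPKM. Of this list 0 were called, with 1 higher at an unadjusted p under 0.05. MHC class I presentation genes had 0 of 11 called and 1 lower at that level, with medians of -0.06 and -0.67. The first of these turned to 0.10 under quantile normalization.

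DNA replication genes separated the clones in the other sense. All 37 tested members were below control in clone 1, with a median of -0.75 and 9 (24.3%, against 7.88% of all genes) at least 2-fold lower, whereas 31 of the 37 were above control in clone 2, with a median of 0.24 and 0 at least 2-fold lower. Cdc6, which loads the replicative helicase, was at 11.2 and 11.1 FPKM in control, 2.80 in clone 1 and 14.2 in clone 2. The cyclin gene Ccne2 was at 24.3 and 23.7, 8.06 and 30.1 FPKM, and the helicase subunit Mcm3 at 53.6 and 54.4, 25.1 and 63.9. The list was also low in knockout, with a median of -0.76, and in the full-length clones, with medians of -1.05 and -1.24. Knockout held 3.33 and 3.14 FPKM of Cdc6 and the full-length clones 2.50 and 2.17. Mitosis genes did not divide the clones this way: their medians were 0.03 and 0.19 over 35 genes, and 0 were at least 2-fold from control in either clone. Inhibitors of cyclin-dependent kinases and p53 response genes had 1 of 25 called (Cdkn1c), and medians of 0.09 and -0.18. In the replication and mitosis lists 0 genes were called and 0 reached an unadjusted p under 0.05.

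**Figure D4:**
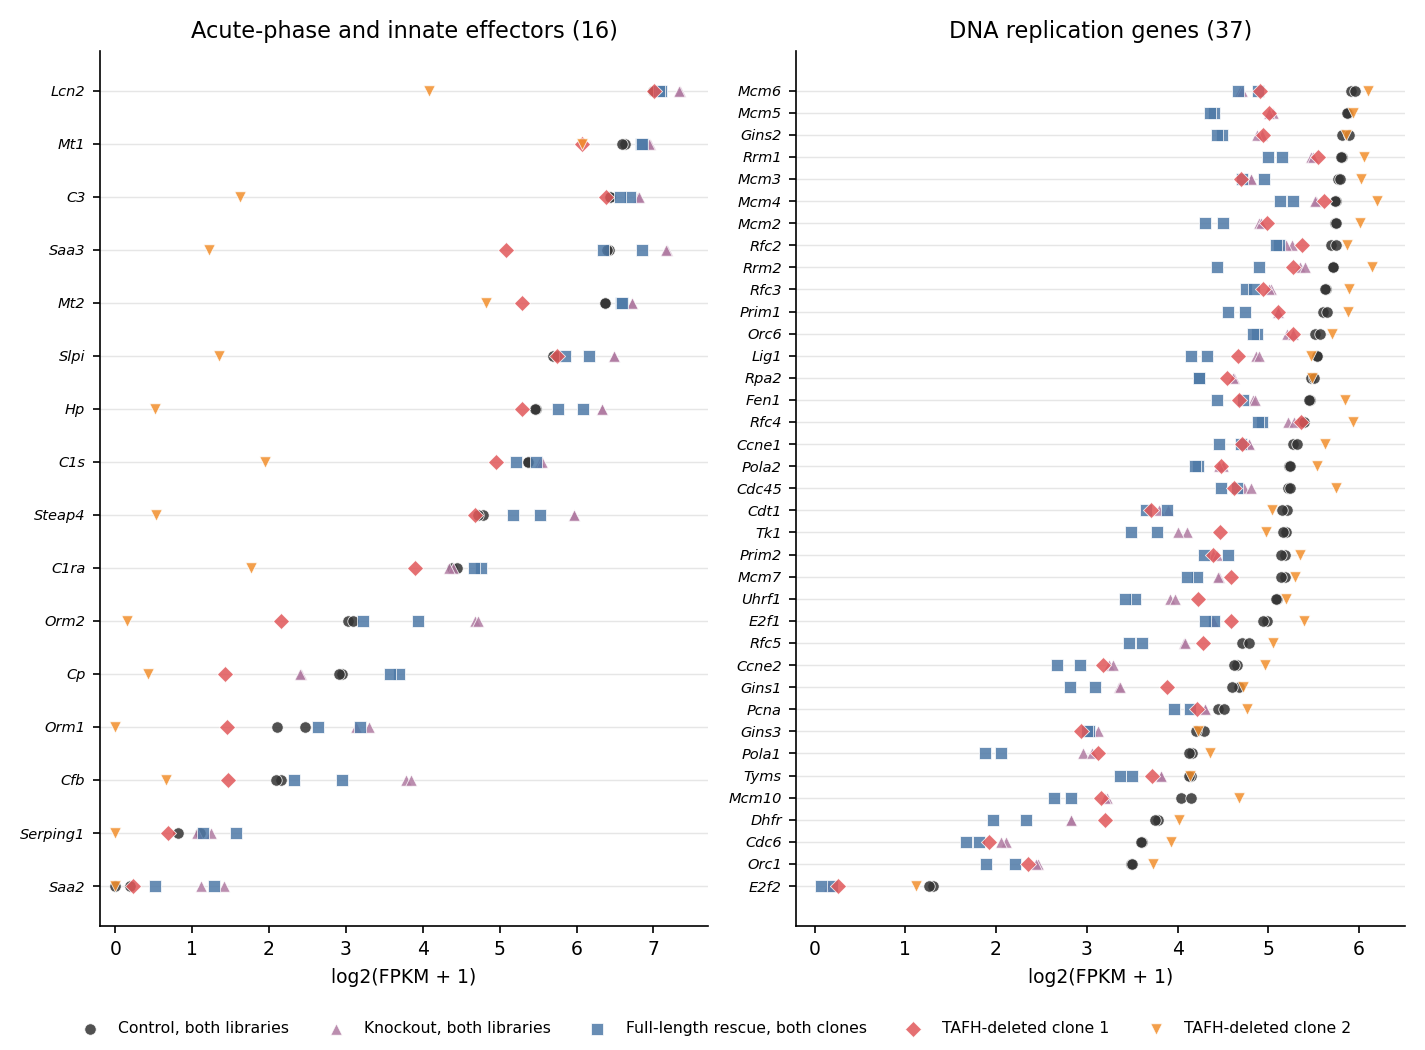
Levels of the 16 acute-phase and innate effector genes (left) and the 37 DNA replication genes (right) in all 8 libraries, as log2(FPKM + 1), ordered by the control mean. On the left clone 2 (inverted triangles) lies far below control in most genes while clone 1 (diamonds) stays near it. On the right clone 1 lies below control in all 37 genes and clone 2 close to or above it.

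Single genes with 1 clone near control and the other far away included regulators of other cell types. Pparg, the nuclear receptor of fat cell formation, was at 23.9 and 23.4 FPKM in control, 2.96 in clone 1 and 19.5 in clone 2. Eps8, an actin regulator, was at 12.4 and 12.9, 0.835 and 10.9 FPKM, and the cytokine gene Il7 at 14.1 and 14, 1.70 and 16.0. In the full-length clones Eps8 was at 10.8 and 11.1 FPKM and Il7 at 1.68 and 1.35. Slpi, a protease inhibitor of mucosal surfaces, and Lbp, which binds bacterial lipopolysaccharide, were near control in clone 1, at 52.7 and 17.8 FPKM, and at 1.56 and 0.0265 in clone 2. Ndufs5, a subunit of respiratory complex I, was listed at 0.00231 FPKM in clone 2 and 22.1 in clone 1, but also at 0.0163 and 18.6 in the full-length clones. Selp, the adhesion molecule P-selectin, lay on opposite sides of control, at 7.98 and 8.52 FPKM in control, 1.47 in clone 1 and 26.8 in clone 2.

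Genes of TFIID itself mostly stood within 2-fold of control. Of 17 tested, 0 were called and 3 (Taf10, Taf12 and Taf13) were higher at an unadjusted p under 0.05 (limma), against 452 of 12025 for all genes. The medians were 0.03 in clone 1 and 0.21 in clone 2. Above control stood 10 of the 17 in clone 1 and 14 in clone 2. Below it were thus 41.2%, against 52.3% of all genes, and 17.6%, against 48.4%. Taf4a, the mouse Taf4 gene, was at 11.1 and 11.5 FPKM in control and at 14.7 and 19.2 in TAFH-deleted clones 1 and 2, and at 12.5 and 12.4 in the libraries labelled knockout. It does not check the labels, since the deleted exons are not given in the sources used here, and alignment of human transgene reads to the mouse gene was not tested. Its paralog Taf4b was at 2.31 and 2.64 FPKM in control, 1.64 in clone 1 and 6.13 in clone 2. Tbp, the TATA-binding subunit, was at 33.2 and 33.8 FPKM in control and at 30.9 and 34.1, and Taf12, the histone-fold partner of TAF4, at 40.0 and 40.8 against 49.1 and 51.7.

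E proteins, Id inhibitors and ETO corepressors had 0 of 9 tested genes called and 1 lower at an unadjusted p under 0.05 (limma). Tcf3 was at 59.6 and 60.7 FPKM in control and at 61.3 and 57.2 in TAFH-deleted clones 1 and 2, Tcf4 at 44.9 and 45.3 against 40.3 and 37.5, and Tcf12 at 45.1 and 45.0 against 59.5 and 50.4. That member was the ETO gene Runx1t1, at 11.3 and 11.2 FPKM in control and 5.95 and 4.86 in the clones (adjusted p = 0.234 by limma). The full-length clones had 10.4 and 10.6 FPKM of it. Id4 parted the clones, at 1.99 and 1.59 FPKM in control, 0.385 in clone 1 and 6.47 in clone 2. Of 12 tested genes known as E-protein targets in other cells, 1 was called, Cdkn1c, and the medians were -0.21 and -0.33. Cdkn1a, the cell cycle inhibitor p21 and a classic target, was at 7.34 and 7.72 FPKM in control and at 0.164 and 2.06 in the clones (adjusted p = 0.385 by limma). Ebf1, a target known from B cells, was at 24.7 and 24.4 FPKM in control, 24.2 in clone 1 and 4.32 in clone 2, and Hes1 at 7.30 and 8.30, 3.37 and 17.2.

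Metabolic and antioxidant lists differed in their shares at least 2-fold below control, which were 7.88% in clone 1 and 7.83% in clone 2 for all genes. The shares were 6.25% and 3.1% for glycolysis and hypoxia genes, and 3.23% and 0% for cholesterol and fatty acid synthesis genes. For NRF2 antioxidant genes they were 11.5% in each clone, and for the ATF4 list 18.8% and 12.5%. Glycolysis and hypoxia genes had medians of 0.04 and -0.13 over 32 genes, cholesterol and fatty acid synthesis genes -0.28 and -0.11 over 31, and NRF2 antioxidant genes 0.20 and 0.14 over 26. In these 3 lists 0 genes were called, with 5 lower and 3 higher at an unadjusted p under 0.05 (limma). Within the last list Gsta4, a glutathione transferase, was at 17.3 and 18.6 FPKM in control and at 2.14 and 2.53 in the clones, although the list's median was positive. Genes of ATF4, serine synthesis and the unfolded protein response had medians of -0.42 and -0.05 over 32 genes and 0 called, with 4 lower and 1 higher at an unadjusted p under 0.05. Trib3, a pseudokinase induced by stress, was at 27.4 and 27.9 FPKM in control and at 6.19 and 12.9 in the clones.

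By chromosome, X and 3 stood highest among those with at least 5 tested genes. The 381 genes of X had medians of 0.21 in clone 1 and 0.17 in clone 2, with 27.6% and 28.9% of them below control, and the 591 genes of chromosome 3 had a median of 0.18 in each clone. Called genes on X, among them Vsig1, the BMP antagonist Chrdl1 and the angiotensin receptor gene Agtr2, were lower, as were all called genes. Both clones were at least 2-fold lower in 25 of the 381 genes of X and in 24 of the 591 of chromosome 3. Among all 12025 genes they were so in 547 (4.55%). Chrdl1 was at 8.74 and 9.73 FPKM in control and at 0.106 and 0.0309 in TAFH-deleted clones 1 and 2, and Agtr2 at 7.79 and 7.2 against 0.184 and 0.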

How the data were processed

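RNA sequencing libraries of 8 fibroblast samples in 4 groups were given as tables of FPKM per transcript, deposited by the authors, with transcript length, locus and gene name per the file headers. The submitters' processing notes name CASAVA 1.8, TopHat, Cufflinks, Cuffdiff and the mouse build mm9. Gene coordinates are counted from 1.

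FPKM of 30028 transcripts, with 23235 gene symbols, were summed by gene and chromosome. RefSeq names matched 28875 transcripts (96.2%), and 47 symbols that a spreadsheet had turned into dates were restored. Genes that reached 1 FPKM in 2 or more libraries (12209) were kept, less 184 with transcripts under 300 bases, which left 12025. Library depth, not given in the tables, was inferred from the steps between low FPKM values, and intervals on it were not computed.

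Each TAFH-deleted clone was compared with the control mean as a difference of log2(FPKM + 1). limma 3.58.1 (R 4.3.3), with a trended prior, tested both clones over 6 samples of 4 groups, after averaging the near-identical control libraries and likewise the knockout ones, and p was adjusted by Benjamini-Hochberg over all genes. Named genes, at 5 FPKM or more in control or in the mean of the clones and not predicted genes, were the 12 in each direction with the largest smaller difference of the clones, the 5 each way with the clones furthest apart and 1 within 0.3 of control, the 5 on opposite sides of control, and up to 4 a side in each list, with Taf4a, Taf4b, E-protein and Id genes. A subset of these is printed. Further called genes and list members were chosen after their values were seen. The members and lists were chosen with earlier results of these data known. The test was checked on simulated data with the same spread for every gene and group. In the real data the spread differs between groups, so that check gives no support to the calls. Alternatives covered the pseudocount, filters, scaling, fits without a sample, and fits of 8 libraries with and without replicate number. Python 3.11.15 was used for the tables and figures. A member of the growth factor list is not reported here by name.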

Additional observations from a re-analysis of the deposited data

How the results depend on the processing

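No named gene that was at least 2-fold from control in a clone changed direction there under the alternatives tried. Smaller differences of named genes were not checked for this. The split at an unadjusted p turned from 1045 lower and 452 higher to 754 and 846 under quantile normalization. List medians near 0 changed sign under quantile normalization or median centring: those of E proteins, matrix proteases, MHC class I and smooth muscle genes in clone 1 and of Hox genes in clone 2. Quantile normalization moved the clone 1 medians of laminins and integrins to -0.33 and of cholesterol genes to -0.05, and the clone 2 median of MHC class I genes to -0.33. A pseudocount of 5 moved the clone 2 median of proteoglycans to -0.85. Against 67 genes called lower and 0 higher, limma gave 0 lower at a pseudocount of 0.1, with a mean of at least 5 FPKM, and with only control and TAFH-deleted samples fitted. It gave 114 lower at a pseudocount of 5, 377 lower and 3 higher with no filter on low values, 16 lower under quantile normalization, 192 lower and 2 higher without genes over 20% of read starts in use, and 2 higher with short transcripts kept. With a sample left out, calls ranged from 0 to 2098 lower and from 0 to 1511 higher. The filter added after seeing the data gave 46 lower. Replicate numbers did not pair the samples, since deviations of same-numbered libraries correlated between -0.0776 and 0.0571. Counting all 8 libraries gave 1498 lower and 1189 higher, and adding a replicate block gave 1195 and 729. Of the 12 named falls, 0 kept their call at a pseudocount of 0.1, with a mean of at least 5 FPKM, or with only control and TAFH-deleted samples fitted. Under quantile normalization 7 kept it, and under median centring or at a pseudocount of 5 all 12 did.

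At a pseudocount of 0.1 the genes at least 2-fold higher were 180 in clone 1, 163 in clone 2 and 39 in both, and the clones were apart in 1504. At a pseudocount of 5 the higher genes were 15, 25 and 1, the lower ones 293, 382 and 180, and the clones were apart in 334. With a mean of at least 5 FPKM the higher genes were 46, 47 and 4, and the lower ones 438, 474 and 202. Under quantile normalization the higher genes were 306, 280 and 89, and the lower ones 590 in clone 1 and 354 in both. Keeping short transcripts gave 159 higher in clone 2 and 26 in both. Leaving out a control library gave 11 to 14 higher in both. The cause of these shifts was not tested, beyond the pseudocount and the stricter filter, which act most on low genes.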
